A study of Mus musculus with 2 samples.

Results

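The 9 genes described here encode the calcium switch of the heart's thin filament and the rods it controls. They are the slow skeletal and cardiac troponin T genes Tnnt1 and Tnnt2, the troponin I genes Tnni1 and Tnni3, the troponin C gene Tnnc1, and the tropomyosin genes Tpm1, Tpm2, Tpm3 and Tpm4. They were taken by symbol, after matching Ensembl identifiers to names, from 17646 genes listed in the deposited tables, and all 9 were found. All 9 also stood at 1 RPKM (reads scaled to gene length and library total) or more in both libraries. The tables come from hearts of BALB/c mouse embryos on embryonic day 13.5. One library is wild type and the other is SRSF10-/-, hereafter knockout. The labels give neither the allele's construction nor the number or sex of the embryos behind a library. SRSF10 is an SR protein that takes part in splicing, and the comparison asks which genes differ in the heart when it is missing. Each genotype has a single library, so differences have no replicate check, no p-value is given, and each 95% interval covers counting error only. Higher and lower therefore refer to these 2 libraries.

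Tropomyosin is a coiled coil that lies along actin and, at rest, covers the sites where myosin heads bind. Troponin C binds calcium, troponin I holds the complex in its inhibiting position until calcium arrives, and troponin T ties both to tropomyosin. Each troponin complex carries the subunits in equal number. Cardiac and slow skeletal muscle share their troponin C, Tnnc1. The embryonic heart uses the slow skeletal troponin I, Tnni1, which cardiac troponin I, Tnni3, replaces around and after birth. Tpm1 is the main striated tropomyosin of the mouse heart, while Tpm2, Tpm3 and Tpm4 also serve slow muscle, smooth muscle and the cytoskeleton of other cells.

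The libraries held 39.61 M and 38.89 M uniquely mapped reads. Srsf10 stood at 35.3 RPKM (5245 reads) in wild type and at 1.45 RPKM (212 reads) in the knockout, 24.3-fold lower (21.2 to 28.0). For the 12329 genes that reached 1 RPKM in either library, called expressed here, the median log2 ratio of RPKM + 1, knockout over wild type, was -0.01, with quartiles of -0.14 and 0.13. All 8 cardiomyocyte markers were present, from 23.2 RPKM for the calcium channel gene Ryr2 to 6350 for the actin gene Actc1 in the wild type, so the tissue carried the genes its label names. Their summed level was 10963 RPKM in wild type and 10448 in the knockout, and 5 of 8 had a log2 ratio below 0. All 6 fibroblast markers were lower in the knockout, with a summed level of 813 and 567 RPKM. All 7 erythroid markers were lower, with 3989 and 2895. Of 6 smooth muscle markers 5 were higher, with 2344 and 2799 RPKM in sum. All 4 macrophage markers were higher, with 33.7 and 48.8. Endothelial markers summed to 181 and 179 RPKM, with 3 of 4 higher. Of 4 hepatocyte markers 2 were measured and both were lower, with Alb at 0 reads in the knockout. The other 2 stayed below 1 RPKM and differed in direction, Apoa1 with 19 and 2 reads and Ttr with 22 and 34. All 4 summed to 3.76 and 0.816 RPKM. In whole hearts, fewer cells of a type and less RNA per cell cannot be told apart. Reads of 4 Y-linked genes numbered 2943 in wild type and 7 in the knockout, so sex and genotype cannot be told apart in this pair of libraries.

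Apart from Tnnc1, levels ran from 2940 RPKM for Tnnt2 to 41.2 RPKM for Tpm3 in wild type, and the order was nearly the same in both libraries. In the wild type the order from high to low was Tnnt2, Tnni1, Tpm1, Tnni3, Tnnt1, Tpm4, Tpm2, Tpm3 and Tnnc1. The knockout kept that order except that Tpm2 stood above Tpm4 there. The knockout levels of that pair, 149 and 147 RPKM, had overlapping counting intervals (146.6 to 151.8 and 144.2 to 149.5 RPKM), whereas no other neighbouring pair had overlapping intervals in either library. Tpm1 and Tnni3 were close in the wild type, at 876 and 843 RPKM. These levels are per length and use the single gene length that the authors list. Each listed length of the 9 genes equals that of 1 annotated transcript of its gene in GENCODE M21, which for Tpm3 is a transcript with a retained intron. With the union of all annotated exons as length instead, a choice made after the data were seen, the knockout order began with Tpm1, Tnni1 and Tnnt2.

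**Figure D1:**
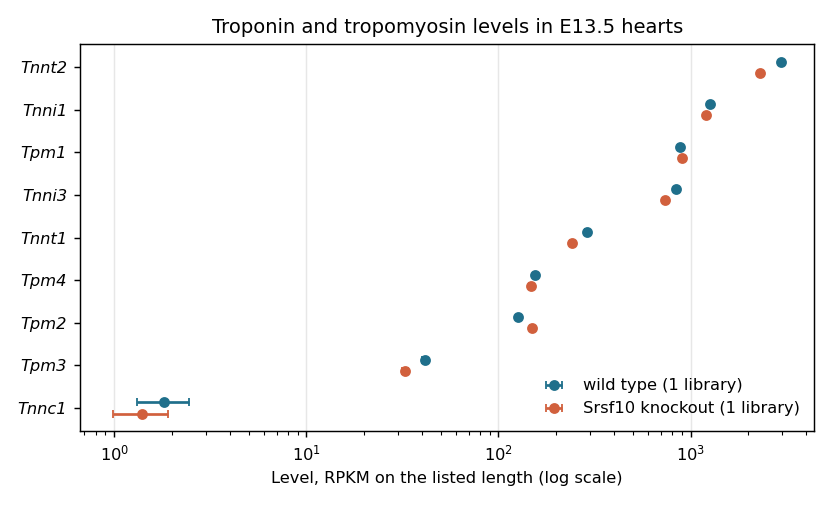
Level of each troponin and tropomyosin gene in the wild-type and knockout heart library, in RPKM on the listed gene length (log axis). Points are single libraries and bars are exact Poisson 95% intervals, mostly narrower than the point. Tnnt2 was highest at 2940 and 2305 RPKM, and Tnnc1 lay far below the others at 1.82 and 1.39 RPKM.

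The start regions of Tnnt2, Tpm1 and Tnnc1 are shown because the first encodes the most abundant member, the second the leading tropomyosin and the third the member with the lowest reading. These 3 were also the members with an M-CAT core, CATTCC, the element bound by TEAD factors and first described in the chicken cardiac troponin T promoter. The sequences are from RefSeq on GRCm38.p6, a later build than the one the reads were aligned to, and run from 250 bases before to 50 bases after the listed start, 5′ to 3′ on the gene's strand. Capitals mark CATTCC or its reverse complement and, in Tnnt2, the reverse complement of the GATA factor motif AGATAA. The Tnnt2 region is the first of 2 listed starts, at chr1:135836084-135836383 on the plus strand, the Tpm1 region is at chr9:67049164-67049463 on the minus strand, and the Tnnc1 region is at chr14:31208062-31208361 on the plus strand.
Tnnt2: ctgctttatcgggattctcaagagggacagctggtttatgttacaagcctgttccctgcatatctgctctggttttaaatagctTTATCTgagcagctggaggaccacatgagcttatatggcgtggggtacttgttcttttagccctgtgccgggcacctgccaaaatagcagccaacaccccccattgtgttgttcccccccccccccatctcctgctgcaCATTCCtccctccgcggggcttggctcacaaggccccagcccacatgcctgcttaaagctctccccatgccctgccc
Tpm1: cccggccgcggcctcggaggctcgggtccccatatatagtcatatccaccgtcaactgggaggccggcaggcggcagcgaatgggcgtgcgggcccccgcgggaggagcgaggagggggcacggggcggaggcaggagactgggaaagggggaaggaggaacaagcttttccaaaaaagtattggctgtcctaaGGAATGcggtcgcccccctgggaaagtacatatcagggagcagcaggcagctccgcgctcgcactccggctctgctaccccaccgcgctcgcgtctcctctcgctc
Tnnc1: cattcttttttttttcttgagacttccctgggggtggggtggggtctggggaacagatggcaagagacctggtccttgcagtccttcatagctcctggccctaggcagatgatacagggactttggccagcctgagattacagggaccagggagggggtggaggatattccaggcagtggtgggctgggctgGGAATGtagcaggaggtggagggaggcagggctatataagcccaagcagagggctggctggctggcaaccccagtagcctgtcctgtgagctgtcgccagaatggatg
Counted back from the start to its first printed base, the M-CAT match lay at -27 in Tnnt2, -56 in Tpm1 and -58 in Tnnc1. Either strand was searched over 12 listed promoters of the 9 genes, and no printed matches overlapped. CATTCC was found in 3 of the 9 genes, or 3 of the 12 promoters, and in 14.7% of 32851 RefSeq promoter windows of 300 bases. AGATAA was found in 2 of 9 genes, Tnnt2 and Tpm3, or 2 of the 12 promoters, and in 11.2% of windows. TATAAA was found in 1 of 9 genes, Tnnt1, or 1 of the 12 promoters, and in 13.6% of windows. No member window matched the CArG box or the MEF2 site, which occur in 1.63% and 3.19% of windows. A match is a description of the letters and not evidence of a factor at work.

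Troponin T was lower in the knockout heart. Tnnt2, cardiac troponin T, had 127749 reads (2940 RPKM) in wild type and 98328 reads (2305 RPKM) in the knockout, 1.28-fold lower (1.26 to 1.29). Its log2 ratio of -0.35 lay at the 5.73 percentile of expressed genes. Tnnt1, the slow skeletal troponin T that the embryonic heart also makes, had 12068 reads (288 RPKM) and 9887 reads (240 RPKM), 1.198-fold lower (1.17 to 1.23), with a log2 ratio of -0.26. Their summed level went from 3227 to 2545 RPKM. The lower total came mostly from Tnnt2, which made up 91.1% of troponin T RPKM in wild type and 90.6% in the knockout. The read ratio of Tnnt1 to Tnnt2 was 1.06 times that of the wild type (1.04 to 1.09), so the slow form made up slightly more of the reads in the knockout. Tnnt2 had the lowest read ratio of the 9 genes, with an interval that overlapped those of Tpm3 and Tnnc1. By Euclidean distance in log2(RPKM + 1) over both libraries, the 3 expressed genes nearest to Tnnt2 were Myl2 (3056 and 2963 RPKM, distance 0.37), Gm10076 (2265 and 2385, 0.38) and mt-Atp6 (2628 and 2935, 0.38). With only 2 points per gene this likeness is one of level.

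Both troponin I genes were expressed, and the slow skeletal form predominated. Tnni1 had 57668 reads (1266 RPKM) in wild type and 54067 reads (1209 RPKM) in the knockout, 1.05-fold lower (1.03 to 1.06). Tnni3 had 30466 reads (843 RPKM) and 25960 reads (732 RPKM), 1.15-fold lower (1.13 to 1.17). Tnni1 thus made up 60.0% of troponin I RPKM in wild type and 62.3% in the knockout. Per length, Tnni1 stood at 1.501 times the level of Tnni3 in wild type and 1.65 times in the knockout, and the read ratio was 1.10 times that of the wild type (1.08 to 1.12). Length cancels in that last value. Tnni3 shares 86 exonic bases with Dnaaf3 on the same strand, and the part of these in its count was not tested. In the GENCODE M21 annotation Tnnt1 and Tnni3 lie 1923 bases apart on chromosome 7, and Tnni1 and Tnnt2 lie 25365 bases apart on chromosome 1.

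Troponin C did not match its partners. Tnnc1, the cardiac and slow troponin C, had 42 reads in wild type and 39 in the knockout, or 1.82 RPKM (1.31 to 2.45) and 1.39 RPKM (0.989 to 1.90). Summed troponin I RPKM was 1162 times the Tnnc1 value in wild type and 1395 times in the knockout. That rise rests on the unequal listed lengths described next, since with 1 length for both libraries the ratio was slightly lower in the knockout, at 2098 and 2052 by reads, 1434 and 1395 by the longest coding transcript and 763 and 737 by exon union. The reads per library read were 1.06-fold lower in the knockout, with an interval of 0.667 to 1.68 that spans no difference. The log2 ratio of RPKM + 1, -0.24, is larger in size because the listed lengths differ: 584 bases in the wild-type table and 721 in the knockout table. Among the 16410 genes listed for both libraries, 76 had unequal lengths, 5 of them expressed, and Tnnc1 was the only member among them.

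The length of 584 bases equals an annotated Tnnc1 transcript classed as a nonsense-mediated decay product, and 721 bases equals Tnnc1-202, the coding transcript. Apart from its ends, the 584-base form lacks the first 26 bases of exon 5, which are shown in capitals with 15 bases on either side because they separate the forms behind the unequal lengths. The sequence is from GENCODE M21 transcripts of a gene on chromosome 14.
Tnnc1-202: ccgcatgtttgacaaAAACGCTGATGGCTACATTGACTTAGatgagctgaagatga
The count tables do not say which transcript the 42 and 39 reads came from. The reads covered 63.18% of the listed length in wild type and 24.97% in the knockout. Genes with reads and length within a factor of 1.5 of these had a median coverage of 84.84% (63 genes) and 80.32% (93 genes). The wild-type value lay within the 10th to 90th percentile range of its like genes, 51.9% to 97.4%, and the knockout value lay below its own, 49.4% to 93.9%. The 5 expressed genes with unequal lengths, looked up after their values were seen, are Tnnc1, Wfdc18, Rsl24d1, Gm4724 and the Y-linked Uty, and knockout coverage was the lower in all 5. For Uty the reads differ as well, at 423 and 7. Rsl24d1 had 1569 and 1422 reads with 99.09% and 10.68% of its listed length covered. Knockout coverage was lower in 44 of all 76 genes with unequal lengths and in 8210 of 16334 genes with equal lengths.

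Sequence sharing and exon overlap were measured for Tnnc1. None of the 31-base words of either Tnnc1 transcript occurs in annotated transcripts of another gene on either strand. Its exons share 0 bases with exons of another gene there. It does lie inside Nisch, on the opposite strand, where 1 of 23 Nisch transcripts spans it. Nisch, which encodes the imidazoline receptor-related protein nischarin, had 36781 reads (167 RPKM) in wild type and 33491 (155 RPKM) in the knockout. These counts ranked 73 and 86 among all genes. Nisch was looked up after the Tnnc1 values were seen, the annotation release used by the authors is not given in the sources used here, and whether reads of one gene were counted for the other was not tested. The Tnnc1 value is therefore given as the tables list it, not as a level of troponin C message.

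**Figure D2:**
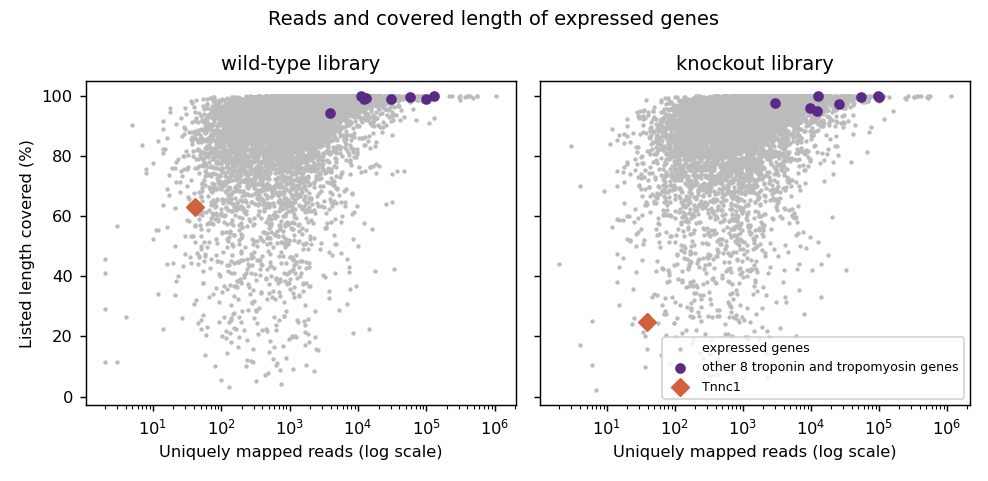
Percent of the listed gene length covered against uniquely mapped reads (log axis), 1 point per expressed gene, in each library. The other 8 genes (purple) lie at 94.19% coverage or more in both libraries, from 3021 to 127749 reads, while Tnnc1 (orange diamond) lies at 42 reads and 63.18% in wild type and at 39 reads and 24.97% in the knockout.

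The tropomyosins lay on both sides of a ratio of 1. Tpm1, the striated muscle alpha-tropomyosin, had 100230 reads (876 RPKM) in wild type and 101273 reads (901 RPKM) in the knockout, 1.03-fold higher (1.02 to 1.04). Tpm2, beta-tropomyosin of slow and smooth muscle, had 10930 reads (127 RPKM) and 12619 reads (149 RPKM), 1.18-fold higher (1.15 to 1.21). These were the only members with a log2 ratio above 0. Tpm3, the slow skeletal and cytoskeletal gamma-tropomyosin, had 3878 reads (41.2 RPKM) and 3021 reads (32.7 RPKM), 1.26-fold lower (1.201 to 1.32). Tpm4, the cytoskeletal delta-tropomyosin, had 13108 reads (156 RPKM) and 12151 reads (147 RPKM), 1.06-fold lower (1.03 to 1.09). The summed tropomyosin level was 1199 RPKM in wild type and 1230 in the knockout. Tpm1 held 73.0% and 73.3% of it. The share of Tpm2 went from 10.6% to 12.1%, that of Tpm3 from 3.44% to 2.66% and that of Tpm4 from 12.97% to 11.9%.

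Relative to Tpm1, reads of Tpm2 were 1.14 times those of the wild type (1.11 to 1.17), reads of Tpm3 0.771 times (0.734 to 0.809) and reads of Tpm4 0.917 times (0.894 to 0.942). Tpm3 and Tpm4 are measured with less certainty, because 19.6% and 20.5% of the 31-base words in the transcripts of their listed length occur in other genes. Most of these words lie in the tropomyosin copies Tpm3-rs7 for Tpm3 and Gm7809 for Tpm4. For Tpm2 the share was 0.42%, and for the other 6 genes it was 0%. Tpm4 also shares 134 exonic bases with Gm26586 on the opposite strand. Tpm2 lies on chromosome 4, as Srsf10 does. Tpm2 and Tpm1 are also expressed in smooth muscle, of whose 6 markers 5 were higher in the knockout library, and the part of smooth muscle in their values was not tested.

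**Figure D3:**
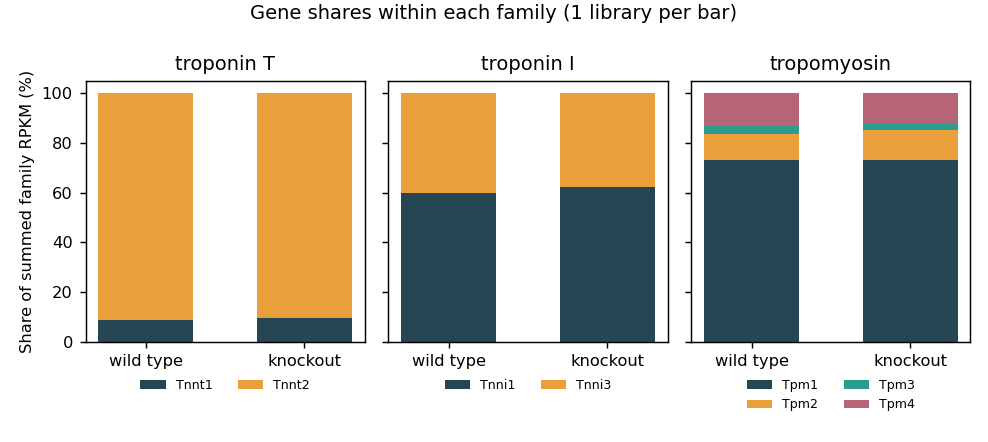
Share of each gene in the summed RPKM of troponin T, troponin I and tropomyosin, for the wild-type and the knockout library (1 library per bar, bars stacked to 100%). Tnnt2 holds about 91%, Tnni1 60.0% and 62.3%, and Tpm1 73.0% and 73.3%, so the bars of each family look alike between genotypes.

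No member was 1.5-fold apart between the libraries, a fold that 2.95% of expressed genes passed in either direction, 1.52% higher and 1.44% lower. At 1.2-fold, 2 of 9 members passed, Tnnt2 and Tpm3, both lower. In that comparison 10.4% of expressed genes were lower, 10.1% higher and 20.5% passed in either direction. Among genes that reached 100 RPKM, which leave out Tpm3 and Tnnc1, 14.3% were lower, 7.67% higher and 22% either. Of the members in that set, only Tnnt2 passed. The count of members in either direction lay near the share of expressed genes. Both that passed were lower, but 2 genes are too few to show a direction. Below 0 lay 7 of 9 members, against 51.8% of expressed genes. One of the 7 was Tnnc1, whose read interval spans no difference. Of the 587 genes that reached 100 RPKM in either library, 57.9% lay below 0. The members in that set were Tnnt1, Tnnt2, Tnni1, Tnni3 and Tpm4 below 0, and Tpm1 and Tpm2 above. The median over the 9 members was -0.20 on the log2 scale. It was -0.14 without Tnnc1, whose ratio depends on its listed lengths, and -0.093 with a pseudocount of 5 in place of 1.

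The balance between the families also differed between libraries. Against Tnnt2, reads of Tpm1 were 1.31 times those of the wild type (1.30 to 1.33), reads of Tnni1 1.22 times (1.201 to 1.24) and reads of Tnni3 1.11 times (1.09 to 1.13). Summed troponin I RPKM was 0.654 of summed troponin T RPKM in wild type and 0.763 in the knockout. For tropomyosin over troponin T, the values were 0.372 and 0.483. The size and order of these family sums depend on the length used: by exon union, a choice made after the data were seen, troponin I over troponin T was 1.40 and 1.61 and tropomyosin over troponin T was 1.18 and 1.51. Both ratios were higher in the knockout with either length. Each length was the same in both libraries, so it left the read ratio of each gene unchanged. Both troponin I genes had higher read ratios than both troponin T genes, so no length could turn the first ratio. Tropomyosin was mostly Tpm1, so the change of length hardly tested the second. Tnnt2 had the lowest read ratio of all members, so any member set against it comes out above 1. The 3 read ratios share that denominator and are not separate results. Their intervals exclude 1, and the spread between embryos is unknown.

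**Figure D4:**
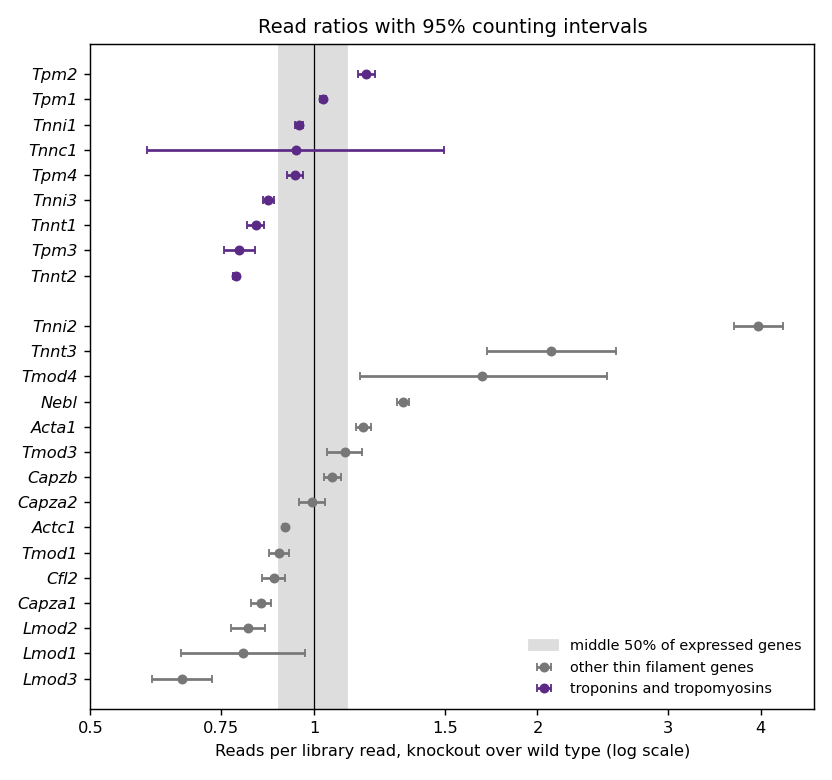
Read ratio, knockout over wild type (reads per library read, log axis), of the 9 troponin and tropomyosin genes and of the 15 measured other thin filament genes, with exact 95% counting intervals. The grey band is the middle 50% of expressed genes, 0.897 to 1.11. Tnnt2 (0.784) and Tpm3 (0.794) lie lowest and Tpm2 (1.18) highest among the 9, and Tnni2 (3.97) lies far to the right.

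Other thin filament genes showed no common direction. Of 18 genes listed for this group 15 were measured, 7 with a log2 ratio above 0 and 8 below, and the median was -0.01, as it was for all expressed genes. At 1.5-fold, 2 were higher and 0 lower on the log2(RPKM + 1) scale, against 1.52% and 1.44% of expressed genes. At 1.2-fold, 4 were higher and 2 lower, against 10.1% and 10.4%. Actc1, cardiac actin and the most abundant, had 6350 and 5799 RPKM, 1.10-fold lower (1.09 to 1.10). The largest ratios were those of the fast skeletal troponins. Tnni2, fast troponin I, had 865 and 3368 reads (24.4 and 96.8 RPKM), 3.97-fold higher (3.68 to 4.28). Tnnt3, fast troponin T, had 151 and 309 reads (3.53 and 7.36 RPKM), 2.08-fold higher (1.71 to 2.55). The fast troponin C gene Tnnc2 had 10 and 0 reads. With the knockout set to a floor of 3 reads per library the difference is 3.27-fold, and the exact counting interval of the ratio begins at 2.20-fold lower. Even in the knockout, Tnni2 stood at 96.8 RPKM against 732 for Tnni3 and 1209 for Tnni1.

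Of 8 other fast skeletal muscle markers 5 were measured, 4 higher and 1 lower, and the summed level of all 8 was 114 RPKM in wild type and 90.02 in the knockout. Most of that sum was Ckm, muscle creatine kinase, at 102 and 75.1 RPKM, a gene picked out after its values were seen. The 4 higher were Mylpf (204 and 266 reads), Myh8 (221 and 318), Actn3 (261 and 305) and Atp2a1 (145 and 209). The 3 that stayed below 1 RPKM in both libraries were Myh3, embryonic myosin heavy chain (87 and 8 reads, 10.7-fold lower, 5.18 to 25.5), and the muscle regulators Myod1 (18 and 2 reads) and Myog (41 and 18 reads). The part of skeletal muscle in the fast troponin values was not tested. Lmod3, a leiomodin that lengthens thin filaments at their pointed ends, came next by log2 ratio (-0.54), at 12.9 and 8.55 RPKM, 1.505-fold lower (1.37 to 1.65).

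Among 9 thick filament genes the median log2 ratio was -0.04, with 3 above 0 and 6 below, against 51.8% of expressed genes below 0. None was 1.5-fold apart, and at 1.2-fold, 1 was higher and 2 lower, against 10.1% and 10.4% of expressed genes. Myl2, the ventricular regulatory light chain and the most abundant, was 1.03-fold lower (1.02 to 1.04), and Myl3, the ventricular essential light chain, 1.33-fold lower (1.31 to 1.35). Among 10 kinases and phosphatases that act on or bind troponin and its partners, 8 lay below 0 and 2 above. Their median was -0.13, and 51.8% of expressed genes lay below 0. At 1.5-fold, 1 of the 10 was lower and 0 higher, against 1.44% and 1.52% of expressed genes. The lower gene was Tnni3k, the heart-specific kinase that binds cardiac troponin I, at 1365 and 810 reads (11.4 and 6.87 RPKM), 1.65-fold lower (1.52 to 1.81). Ppp1cc, a catalytic subunit of protein phosphatase and the most abundant of the list, was 1.13-fold lower (1.10 to 1.16).

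Coverage of the listed length was close between libraries for 8 of the 9 genes. Outside Tnnc1 it moved from -4.13 points (Tpm4) to 3.49 points (Tpm3), while 6855 genes with at least 1000 reads in both libraries had a central range, from the 5th to the 95th percentile, of -4.79 to 4.36 points. For Tnnt2 it was 99.91% in both libraries. Many of these genes are spliced into several forms, Tnnt2 with 15 and Tpm1 with 21 annotated transcripts, and the tables give 1 total per gene, so splice forms were not analysed here.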

How the data were processed

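Heart RNA was sequenced as 1 wild-type and 1 Srsf10 knockout library, and samples were grouped by the genotype in their labels. Bowtie 0.12.2 and mm9 are named in the submitters' processing notes. How reads were filtered, which annotation was used and whether strand was counted: not given in the sources used here. Per the file headers, the deposited count of a gene is its number of uniquely mapped reads, and these sum to the header totals. The deposited RPKM is these counts scaled by the authors to listed length and total, per the file headers. It was recomputed within a relative deviation of 2.1e-14. Coverage is the percent of listed length covered, by its header. Genes listed for only 1 library were set to 0 reads in the other.

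Log2 ratios are of RPKM + 1. Folds with intervals are reads per library read with exact conditional binomial (Clopper-Pearson) 95% intervals. Within-family changes are exact conditional odds ratios. Intervals cover counting error only. They treat reads as independent, though reads lacking molecular identifiers are not, so they may be too narrow even for that error. No test was run, since a single library per genotype gives no spread. Symbols matched 17196 of 17646 identifiers. Transcript lengths, overlaps and shared words came from GENCODE M21 (GRCm38), and 61.5% of matched genes list a length equal to a transcript there. Members, lists and naming rules were chosen with earlier results of these data known. Named were the members, Srsf10, the fast troponins, the most abundant gene of each list, the 3 largest log2 ratios among thin filament genes and the largest in either other list, and the 3 genes nearest Tnnt2. TMM factors came from edgeR 4.0.16. Intervals and folds were run on simulated counts with Poisson error only, which hold no spread between embryos and so cannot test for it. Python 3.11.15 and SciPy 1.17.1 were used.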

Additional observations from a re-analysis of the deposited data

How the results depend on the processing

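Pseudocounts of 0.1 and 5, median centring, TMM, upper-quartile scaling and removal of mitochondrial or globin reads left each member's direction as it was. So did centring on cardiomyocyte markers, added after the data were seen. None of these settings could have turned a member, so they did not test the directions. A pseudocount added alike to both libraries keeps the sign. Each scaling shifted all genes alike, by at most 0.024 in log2 size, below the smallest member ratio (Tpm1, 0.042). The lowest to highest log2 ratio was -0.35 to -0.33 for Tnnt2, -0.33 to -0.29 for Tpm3 and -0.36 to -0.09 for Tnnc1. The median over the members moved from -0.20 to -0.093 with a pseudocount of 5, to -0.18 with upper-quartile scaling and to -0.14 without Tnnc1. Members at least 1.5-fold apart numbered 0 in either direction, and at 1.2-fold 2 were lower. Over the expressed genes, 187 were higher and 177 lower at 1.5-fold. These became 402 and 343 with a pseudocount of 0.1, 34 and 54 with 5, 1248 and 1285 at 1.2-fold, and 26 and 41 at 2-fold. They became 74 and 104 with an RPKM of at least 5, and 196 and 189 over all listed genes with no filter.

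Family shares depend on the length used. By reads alone the shares in the wild type and the knockout were 91.4% and 90.9% for Tnnt2, 65.4% and 67.6% for Tnni1 and 78.2% and 78.5% for Tpm1. By exon union, added after the data were seen, they were 75.1% and 73.9% for Tnnt2, 52.0% and 54.4% for Tnni1 and 59.9% and 60.1% for Tpm1. With the longest coding transcript, also added, the Tnnt2 share was 90.3% and 89.8%. Troponin I over troponin T in wild type and knockout was 0.630 and 0.740 by reads, 0.709 and 0.827 by longest coding transcript and 1.40 and 1.61 by exon union. Tropomyosin over troponin T was 0.917 and 1.19, 0.404 and 0.525, and 1.18 and 1.51 in the same order. These settings too were added. Troponin I over Tnnc1 was 2098 and 2052 by reads, and 763 and 737 by exon union. Counts of 42 and 39 reads limit Tnnc1 to an interval that spans a ratio of 1. No paired analysis was possible because each group has 1 library.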
